A study of Saccharomyces cerevisiae with 9 samples.

Results

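Sharply positioned nucleosomes of wild-type (WT) yeast were followed into a strain without Ioc3. A nucleosome call was taken as sharp where the standard deviation (SD) of its fragment dyads in WT was under 15 bp and its WT occupancy was at least 20. The dyad is the centre of the DNA on a nucleosome, and a small SD means that the fragments of many cells were centred on nearly the same base. This rule chose 3555 calls of 51917 that were paired between WT and ioc3Δ. The WT SD and WT occupancy chose the members, so both are given below as descriptions. Another 48 paired calls had a WT SD under 15 bp and an occupancy under 20 and were not members. All 3555 members were also in a second WT table, with equal SD and occupancy, which held 1 further sharp call with no row here. The methods keep calls that overlap by at least 73 bp between strains. The largest dyad change over all paired calls was 72 bp. The second WT table was paired in the same way with ioc3ΔcHLB, so it does not count the sharp WT calls without a partner. Their number is not known here.

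The series comprised Saccharomyces cerevisiae of the BY4742 background, a haploid laboratory strain, with 3 samples each of WT ISW1a, of ioc3Δ, which lacks IOC3, and of ioc3ΔcHLB, in which part of Ioc3 is removed. The labels give a FLAG tag for every sample, ioc3Δ included. Cultures were grown in YPD, a rich medium with glucose, and were fixed with formaldehyde before digestion with micrococcal nuclease, sequencing of mononucleosomal DNA and calling of nucleosomes. Calls were made on the merged samples of a strain, so each strain is 1 library here, no test between strains was possible, and all differences describe these merged libraries.

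Micrococcal nuclease cuts the linker DNA between nucleosomes, so that the protected fragments show where nucleosomes lie. Yeast genes carry a regular array that starts with the +1 nucleosome beside a nucleosome-depleted promoter and runs into the coding region. Ioc3 joins the ATPase Isw1 in the remodeler ISW1a, which slides nucleosomes and spaces them. Proteins such as Reb1, Abf1 and Rap1 bind specific sequences and keep nucleosomes off their sites.

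The DNA of 6 sharp calls is shown because it spans what the class did in ioc3Δ. They are sharp calls that lay whole within 1 coding region, from 73 bp before to 73 bp after the dyad, namely those with a very low WT SD (PZF1 and RNP1), those that moved farthest (STB4 and TDA11) and those that stayed in place with the same SD (RBP95 and HIR3). Sequences are the reference R64 (sacCer3), + strand, centred on the WT dyad, with AA, TT and TA steps in capitals, steps known to be common where the minor groove faces the histones. PZF1 encodes the transcription factor TFIIIA and its +2 call spans chrXVI:910750-910896. The +1 call of RNP1, a ribonucleoprotein gene, spans chrXII:47300-47446, and the +3 call of STB4, which encodes a zinc cluster protein, spans chrXIII:312536-312682. The +2 call of TDA11 spans chrVIII:417611-417757 and that of RBP95 chrIII:143746-143892. The call of HIR3, a subunit gene of the HIR histone chaperone, spans chrX:690803-690949.
PZF1 +2: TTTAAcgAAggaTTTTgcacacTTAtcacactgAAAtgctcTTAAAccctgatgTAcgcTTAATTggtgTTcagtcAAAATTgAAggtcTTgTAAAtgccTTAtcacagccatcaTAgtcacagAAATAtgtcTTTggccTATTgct
RNP1 +1: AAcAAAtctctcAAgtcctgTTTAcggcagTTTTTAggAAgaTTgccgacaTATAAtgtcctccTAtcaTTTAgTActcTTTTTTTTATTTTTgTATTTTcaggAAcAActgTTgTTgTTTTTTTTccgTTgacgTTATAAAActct
STB4 +3: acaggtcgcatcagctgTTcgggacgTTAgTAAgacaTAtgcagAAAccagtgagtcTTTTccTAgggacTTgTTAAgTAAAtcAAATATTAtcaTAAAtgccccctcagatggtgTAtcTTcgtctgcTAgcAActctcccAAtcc
TDA11 +2: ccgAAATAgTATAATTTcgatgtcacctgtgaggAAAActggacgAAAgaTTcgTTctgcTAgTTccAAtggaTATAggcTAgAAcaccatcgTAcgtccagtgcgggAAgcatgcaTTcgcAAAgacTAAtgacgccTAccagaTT
RBP95 +2: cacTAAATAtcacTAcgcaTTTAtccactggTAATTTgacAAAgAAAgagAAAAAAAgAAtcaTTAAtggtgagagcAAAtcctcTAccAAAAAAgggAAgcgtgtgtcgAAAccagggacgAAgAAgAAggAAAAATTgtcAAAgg
HIR3: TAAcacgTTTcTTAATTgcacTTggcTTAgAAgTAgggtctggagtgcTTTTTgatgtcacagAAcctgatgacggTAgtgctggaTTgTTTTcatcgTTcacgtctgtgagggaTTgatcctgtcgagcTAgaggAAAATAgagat
The number of capitalised steps was 41 in PZF1, 56 in RNP1, 32 in STB4, 31 in TDA11, 47 in RBP95 and 30 in HIR3. The calls that moved and the call of HIR3 that did not held similar numbers of them.

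The PZF1 call had an SD of 8.99 bp in WT, and of 11.1 bp in ioc3Δ, and its dyad changed by -4 bp along the chromosome. For RNP1 the SD was 9.36 bp in WT and 12.3 bp in ioc3Δ, with the dyad on the same base. Both calls were thus broader in ioc3Δ and still under 15 bp. The STB4 call had an SD of 14.5 bp in WT, and of 27.2 bp in ioc3Δ, and moved 32 bp downstream while its occupancy went from 98.6 to 44.4. TDA11 moved 21 bp downstream and its SD went from 13.8 to 19.9 bp, while its occupancy was 139 and then 149.2. RBP95 and HIR3 kept their WT dyads, with SDs of 13.2 and 13.1 bp in RBP95 and of 13.4 and 13.6 bp in HIR3.

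A second set of sequences shows the letters TTACCCG, the core of the Reb1 site, beside the sharp calls of lowest SD that had them 74 to 200 bp from the dyad. These 21 bases are on the + strand with the Reb1 letters, read on either strand, in capitals. CSM3 and NUP116 are divergent genes, encoding a replication checkpoint factor and a nuclear pore protein, and share 1 site at chrXIII:366863-366883. The site beside the +1 call of THP2, a subunit gene of the THO complex, lies at chrVIII:439180-439200, and that beside the call in LDB18, which encodes a dynactin component, at chrXII:40546-40566.
CSM3 and NUP116: aaaatgcCGGGTAAtgataat
THP2: gtttgttTTACCCGaagtgct
LDB18: gttcttaTTACCCGgatatta
The shared site lay 136 bp from the WT dyad of the CSM3 +1 call and 153 bp from that of the NUP116 +1 call. The CSM3 call had an SD of 8.85 bp in WT, and of 10.7 bp in ioc3Δ and a dyad change of 0 bp. The NUP116 call, on the other side of the same letters, had an SD of 9.17 bp in WT, and of 11.9 bp in ioc3Δ and a dyad change of 1 bp in size. Both nucleosomes beside the site therefore kept their place to within 1 bp.

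The depth behind each sharp call was high. Occupancies were whole multiples of 0.138 in WT and of 0.199 in ioc3Δ, taken as 1 fragment each, and sharp calls then held a median of 803 WT fragments (145 to 32774) and 450 ioc3Δ fragments (34 to 39542). Counting alone gave a median standard error of 0.877 bp for the change of a mean dyad, of 0.620 bp for an SD change and of 5.93% for an occupancy ratio. These errors leave out the spread between cultures, which the merged tables do not hold. As a check of the strain, 7 calls within IOC3 on chromosome VI (169922 to 172285) had 0.574% of their WT occupancy in ioc3Δ.

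Sharp nucleosomes lay mainly at the start of genes. Of the 3555, 1339 (37.7%) were +1 calls, 866 (24.4%) +2, 358 (10.1%) +3 and 109 (3.07%) +4. A further 646 lay elsewhere in coding regions and 237 outside them. Among all paired calls 9.30% were at +1 and 60.2% elsewhere in coding regions. The share of calls that were sharp therefore fell along the gene, from 27.7% of +1 calls to 18.6% at +2, 8.16% at +3 and 2.75% at +4, and it was 2.07% in the rest of coding regions and 8.31% outside coding regions. Positions were counted from the start codon in 4863 genes, of which 1790 had at least 1 sharp call: 1100 genes had 1, 516 had 2, 156 had 3 and 18 had all 4.

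Sharp nucleosomes with a paired call stayed nearly in place in ioc3Δ and lost some of their sharpness. The median absolute dyad change was 2 bp (interquartile range 1 to 4), and 511 calls (14.4%) had the same dyad in both strains, against 7.07% of all paired calls. A dyad change of 10 bp or more was seen in 116 sharp calls (3.26%), against 28.4% of all paired calls. For comparison, middle calls were taken as the 9822 calls with the same minimum occupancy and a WT SD of 23.3 to 28.1 bp, the 40th to 60th percentile. Their median absolute change was 5 bp and 29.6% of them moved by 10 bp or more. The error of a called dyad grows with the SD, which differed between the classes by their selection, and its part in this difference was not tested.

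The SD of the sharp calls had a median of 13.5 bp in the WT library and of 15.8 bp in ioc3Δ. The median rise was 2.37 bp (interquartile range 1.23 to 3.87), and the SD was higher in ioc3Δ at 3335 of 3555 calls (93.8%). Over all paired calls the median rise was similar, 2.41 bp, and the SD was higher in ioc3Δ at 77.3%. A rise of 5 bp or more was seen in 483 sharp calls (13.6%), against 23.0% of all paired calls. In ioc3Δ 1323 sharp calls (37.2%) were still under 15 bp and 15 had reached 25 bp or more. Calls picked for a low WT SD will on average have a higher SD in any second library, so the same rule was applied to ioc3Δ. It chose 1399 calls, of which 1310 were also sharp in WT, and their SD was still higher in ioc3Δ at 1093 calls (78.1%), by a median of 0.973 bp. Only 89 calls were sharp in ioc3Δ and not in WT.

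**Figure D1:**
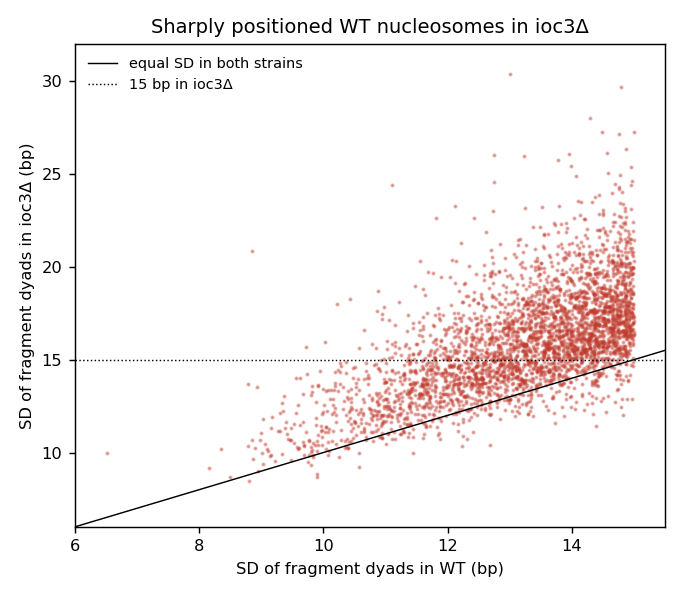
SD of the fragment dyads of each of the 3555 sharp calls in WT (x axis, bp) and in ioc3Δ (y axis, bp). The solid line marks equal SDs and the dotted line 15 bp in ioc3Δ; 3335 points lie above the solid line and 1323 below the dotted one.

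Middle calls went from a median SD of 25.7 bp in WT to 28.9 bp in ioc3Δ, a median rise of 3.24 bp, and 30.5% of them rose by 5 bp or more. This larger rise than in sharp calls did not hold at matched positions. At +1 the median rise was 1.76 bp in sharp and 1.70 bp in middle calls, at +2 2.79 and 2.63 bp, at +3 4.26 and 3.55 bp, and at +4 4.35 and 3.66 bp. Among sharp calls the rise was thus smallest at +1 and larger with each position up to +4. The WT SD of the sharp calls differed little between these positions, from 13.2 bp at +1 to 14.1 bp at +4.

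Across all calls with an occupancy of at least 20, the dyad change grew with the WT SD while the SD change first grew and then fell. The median absolute dyad change was 1 bp at a WT SD under 10 bp (95 calls), 2 bp at 12 to 15 bp and 8 bp at 35 bp or more. The median SD change was 1.33 bp under 10 bp and 2.52 bp at 12 to 15 bp, reached 3.71 bp at 21 to 24 bp and was -0.61 bp at 35 bp or more. The threshold of 15 bp lies on this gradient and does not separate distinct groups of calls. Just under it, the +1 call of GCN5, a histone acetyltransferase gene, had an SD of 16.3 bp in ioc3Δ and the call in SPC105, a kinetochore gene, one of 21.5 bp. The 5 calls just over it had SDs of 16.3 to 26.2 bp in ioc3Δ, the highest at the +4 call of MSH3. At the occupancy limit, the +1 call of SHQ1 was just inside with a WT occupancy of 20.0, and the call of TPM2 just outside with 19.7.

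**Figure D2:**
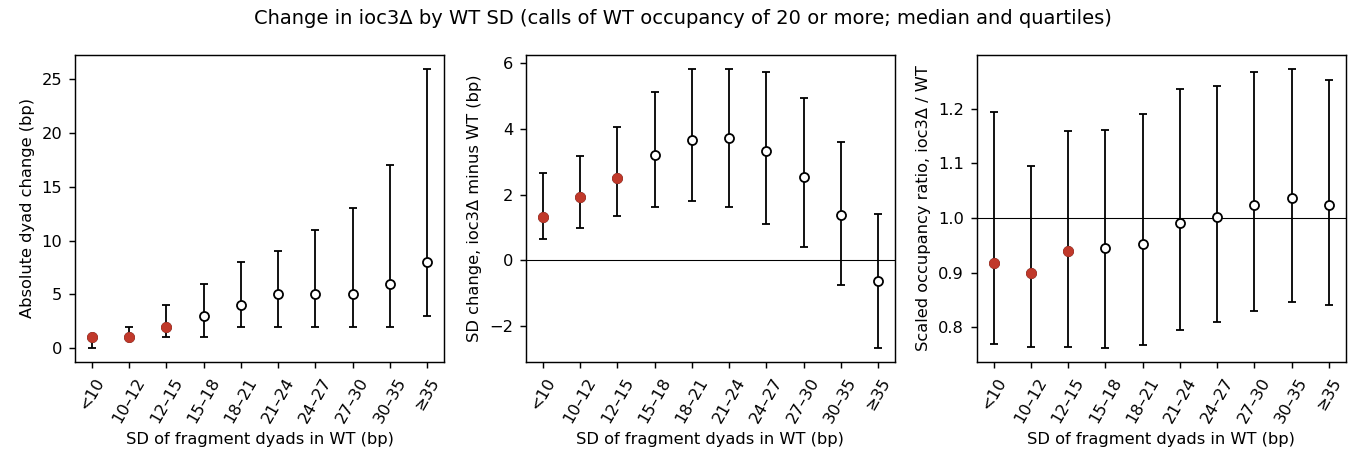
Absolute dyad change (left, bp), SD change (middle, bp) and scaled occupancy ratio (right) between ioc3Δ and WT, by WT SD in bp. Points are medians over calls, bars run from the lower to the upper quartile and red points are sharp calls; the median SD change is 1.33 bp in the lowest bin, 3.71 bp at 21 to 24 bp and -0.61 bp in the highest.

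The small changes of the sharp calls had a direction. In the direction of transcription, the sharp +1 calls were a median of 1 bp farther downstream in ioc3Δ (interquartile range 0 to 2), with 67.9% downstream and 11.6% upstream. Sharp +2 calls were 3 bp farther downstream (2 to 5), and 760 of 866 (87.8%) had moved downstream and 6.93% upstream. For +3 the median was 3.5 bp (1 to 6.75) with 81.6% downstream, and for +4 it was 1 bp (-1 to 4) with 51.4% downstream. The downstream change was therefore smallest at +1 and +4 and largest at +2 and +3. The shares that moved by 10 bp or more followed the same order, with 1.34% at +1, 5.20% at +2, 11.2% at +3 and 2.75% at +4.

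Middle calls had median downstream changes of 4 bp at +1, +2 and +3 and of 3 bp at +4, so the classes differed most at +1 and +4. Their quartiles were wide, from 0 to 10 bp at +2, and 73.1% of them had moved downstream there, fewer than the 87.8% of sharp +2 calls. Over all calls of a position, 78.7% were farther downstream at +2. At +1 the shares downstream were nearly equal, with 67.9% of sharp and 68.6% of middle calls.

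**Figure D3:**
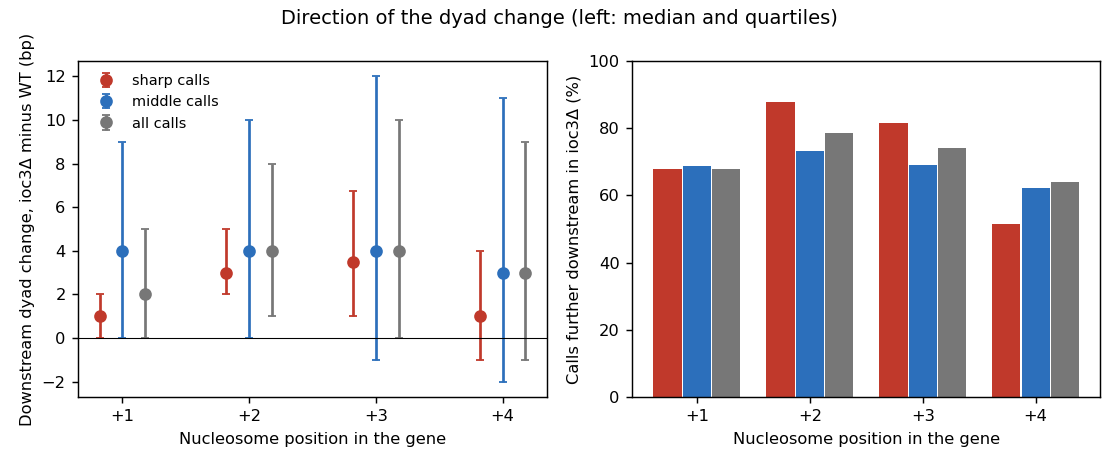
Downstream dyad change in bp (left, median and quartiles) and percentage of calls farther downstream in ioc3Δ (right) at positions +1 to +4, for sharp, middle and all calls. Sharp +2 calls have a median of 3 bp and 87.8% downstream, and their quartiles are narrower than those of middle calls.

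A sharp +1 was followed by neighbours that moved farther than it did. In genes whose +1 was sharp, the +2 call, of any SD, was 4 bp farther downstream in ioc3Δ (interquartile range 2 to 7, 1335 genes) and 86.5% of these +2 calls had moved downstream. The typical distance from +1 to +2 was 168 bp in WT and 171 bp in ioc3Δ, a median change of 3 bp, and it was longer in 74.7% and shorter in 16.9% of these genes. In the 520 genes whose +1 was a middle call, the +2 moved by the same 4 bp but the distance changed by a median of 0 bp, longer in 43.9% and shorter in 45.4%. Over all genes the distance grew by 2 bp and was longer in 60.5%. The distance from a sharp +1 to +3 was 3 bp longer and that to +4 2 bp longer, so that the added length lay between +1 and +2.

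The SD rise grew along the gene behind a sharp +1, as it did over all genes. The median SD rise was 3.21 bp at +2, 4.38 bp at +3 and 4.66 bp at +4 in these genes, against 1.76 bp at the sharp +1 itself. Over all genes the rises were 1.86, 2.84, 3.87 and 3.99 bp from +1 to +4, and behind a middle +1 they were 2.20, 3.15 and 2.98 bp from +2 to +4. The median WT SD at +2 was 15.7 bp behind a sharp +1 and 24.7 bp behind a middle one, so these neighbours differed in sharpness as well.

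**Figure D4:**
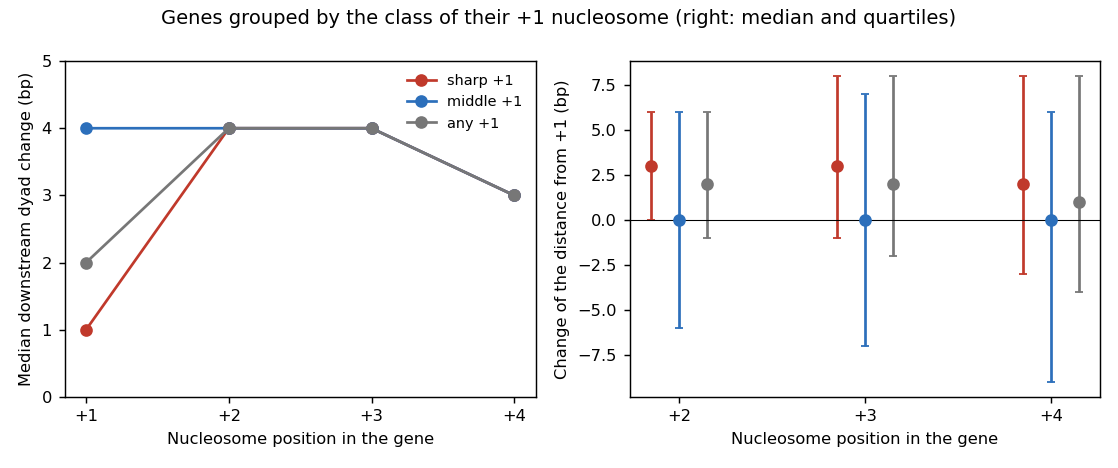
Median downstream dyad change in bp (left) and change of the distance from +1 in bp (right, median and quartiles) at each position of genes grouped by the class of their +1 call. The +2 change is 4 bp in every group, while the +1 change is 1 bp in genes with a sharp +1 and 4 bp in genes with a middle +1.

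Many sharp calls, like most calls at +1 and outside coding regions, had a wide gap to the next call on at least 1 side. Gaps are distances between the dyads of WT calls, so a gap may hold a nucleosome that has no row. Whether the DNA there was open was not tested. The nearest neighbouring call lay a median of 166 bp away (interquartile range 162 to 171), and on the other side the median was 252 bp. A gap of 200 bp or more to the next call was found at 53.2% of sharp calls, against 33.0% of middle and 40.7% of all calls, and much of this went with the place. Such a gap was found at 95.5% of sharp and 90.5% of middle +1 calls, and at 93.3% of sharp and 81.6% of middle calls outside coding regions. Among the 1857 sharp calls with such a gap on 1 side only, 65.1% were farther from the gap in ioc3Δ and 14.4% nearer to it, with a median of 1 bp. For the middle calls with 1 gap these shares were 47.0% and 45.5%, but the classes differed less at matched places. At +1, 67.4% of sharp and 66.7% of middle calls were farther from the gap and 11.8% and 26.04% nearer, and outside coding regions 62.4% and 58.1% were farther and 18.8% and 34.0% nearer. This way of sorting calls was chosen after the values had been seen.

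The direction differed at the ends of genes. Sharp calls outside the +1 to +4 positions that lay within 200 bp of a stop codon (334 calls) were a median of 1 bp upstream of their WT dyads (interquartile range -3 to 0), with 65.3% upstream and 19.5% downstream. The 312 sharp coding calls farther from a stop codon had a median change of 0 bp, with 39.4% upstream and 43.3% downstream. Middle calls near a stop codon moved upstream in 63.4% of cases, by a median of 2 bp, so this direction was not particular to sharp calls.

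The largest changes were few. Apart from STB4 and TDA11, the largest downstream changes were 23 bp at the +1 call of ENT2, an endocytic epsin gene, and 20 bp at the +2 call of GAL7, which encodes an enzyme of galactose use. By mean dyads these changes were smaller, with 23 bp at STB4, 17 bp at TDA11 and 15 bp at ENT2. At GAL7 the mean dyad changed by -16 bp along the chromosome, which is downstream for this gene. The ENT2 call had a WT SD of 14.99 bp and an ioc3Δ SD of 17.8 bp. At GAL7 the occupancy was 117.2 in WT and 48.4 in ioc3Δ, and the SD 14.9 and 21.6 bp. Upstream, the change of -63 bp at IOC3 belongs to the edge of the deleted gene, where the +1 occupancy was 179.5 in WT and 46.8 in ioc3Δ. The next were -13 bp at the +2 calls of DAN1, a gene of a cell wall mannoprotein made without oxygen, and DIT1, a gene of spore wall synthesis, and -12 bp at the +3 call of YGL138C.

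Outside the numbered positions, the call in CIN4, a gene of tubulin folding, had the largest change, of -21 bp along the chromosome, but its mean dyad changed by -1 bp. The calls in MDM36 and RCI50 followed with -12 bp each, and their mean dyads changed by -11 and -12 bp. The CIN4 change therefore rests on the called peak and not on the mean of its fragments.

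The sharpest call of all was the +1 of ERR3, a gene of an enolase-related family, whose SD went from 6.51 bp to 9.98 bp in ioc3Δ. ERR3 has close copies in the genome, so its reads may be shared between them. A noncoding call nearest to PAU19, of the seripauperin family, had 8.15 bp in WT and 9.17 bp in ioc3Δ, and the call in YER085C 8.36 and 10.2 bp. In QRI5 the SD was 8.50 bp in WT and 8.67 bp in ioc3Δ at an occupancy of 1954 and 3417, and near YCK1, a casein kinase gene, it was 8.78 and 10.3 bp. All 5 stayed well under 15 bp and within 1 bp of their WT dyads.

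Some sharp calls became diffuse. The largest SD rise was in AMA1, a meiotic activator gene of the anaphase-promoting complex, from 13 bp in WT to 30.4 bp in ioc3Δ, with a dyad change of 2 bp. At the +1 call of ATG13, an autophagy gene, the SD went from 14.8 to 29.7 bp, and in RCI50 from 14.3 to 28.0 bp where the occupancy fell from 132 to 33.7. Near YLR146W-A it went from 12.7 to 26.04 bp at 51 ioc3Δ fragments. These calls lost sharpness with their called dyads within 12 bp of the WT dyad. Their mean dyads changed by 8 bp in AMA1, 14 bp at ATG13, -12 bp in RCI50 and 7 bp near YLR146W-A.

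A smaller number became sharper. The SD was lower in ioc3Δ at 220 sharp calls (6.19%), against 22.7% of all paired calls. The largest fall was at the +2 call of PEX3, a peroxisome biogenesis gene, from 14.4 to 11.4 bp, with a downstream change of 13 bp. The +1 call of APL6, a gene of the AP-3 adaptor, went from 14.8 to 12.04 bp, a call near TYW1, a tRNA modification gene, from 14.6 to 12.2 bp, and the +1 call of LEU1, a gene of leucine synthesis, from 14.8 to 12.5 bp. None of these falls reached 3 bp.

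Occupancy ratios are ioc3Δ over WT, scaled to the ratio of the typical paired call (0.892), so that a ratio of 1 stands for the typical call. The median of the sharp calls was 0.931 (interquartile range 0.765 to 1.15), and that of middle calls 1.00. A ratio of 1.5 or more was found at 273 sharp calls (7.68%), against 11.5% of all paired calls, and a ratio of 1/1.5 or less at 487 (13.7%), against 10.8%. The typical sharp call was thus shifted towards lower occupancy in ioc3Δ by less than the width of the quartiles. As a class, sharp calls held nearly the same share of the fragments of all paired calls, 10.84% in WT and 10.74% in ioc3Δ. Calls chosen by their ioc3Δ values instead had a median of 0.997.

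The ratio moved with the base composition of the calls. The sharp calls were cut into 3 classes by the G+C share within 73 bp of the dyad, at 38.1% and 42.2%. The median ratio was 0.731 at low, 0.913 at intermediate and 1.18 at high G+C, and the WT occupancy was 79.9, 102 and 155.7. With the same limits, the ratios were 0.791, 0.992 and 1.26 in middle calls and 0.807, 0.993 and 1.25 over all calls. The ratio of sharp calls was therefore lower than that of middle calls in each G+C class, but it was above 1 at high G+C. The SD rise of sharp calls was 2.70, 2.45 and 2.01 bp in the 3 classes. Whether the libraries differ in base composition through digestion, amplification or sequencing was not tested.

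**Figure D5:**
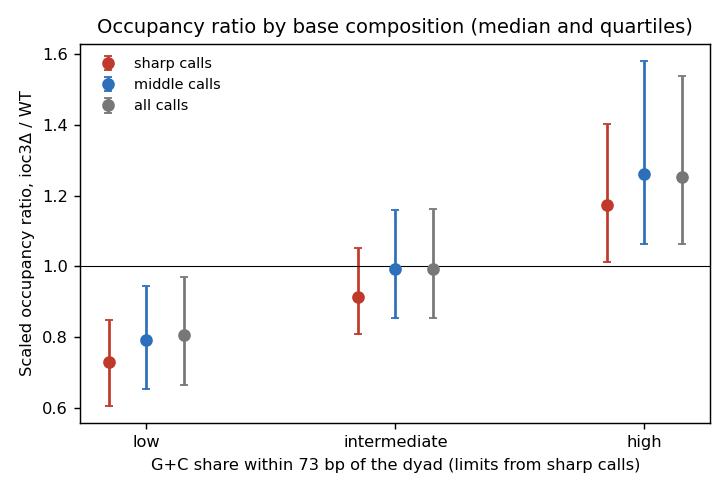
Scaled occupancy ratio of ioc3Δ over WT (y axis, median and quartiles) at low, intermediate and high G+C share within 73 bp of the dyad (x axis), for sharp, middle and all calls. The ratio rises with G+C in each class, from 0.731 to 1.18 in sharp calls.

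Occupancy itself moved with both measures. From WT occupancies of 20 to 50 up to 1000 or more, the median ratio of sharp calls was 0.823, 0.872, 0.935, 1.12 and 1.87, with bounds at 50, 100, 200 and 1000. Their median SD rise was 3.83, 2.86, 2.17, 1.39 and 0.555 bp over the same classes. Both gradients were also seen in middle calls. There the ratio was 0.958, 0.973, 1.069, 1.553 and 1.71, and the SD rise 4.125, 3.264, 2.226, 0.620 and 0.806 bp. The 101 sharp calls of 1000 or more had the highest ratio, and the 183 middle calls of such occupancy also had a high one, 1.71. Of the 101, 68 had another call of at least 200 within 500 bp. The median ratio of all calls within 500 bp, taken for each of the 101, was typically 1.31. Neither value was computed for middle calls or for all calls, so whether they are particular to these calls was not tested.

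The sharp call of highest occupancy lay in SSA3, an Hsp70 chaperone gene, with 4525 in WT and 7878 in ioc3Δ and a ratio of 1.95. DEP1, a gene of the Rpd3L histone deacetylase complex, had 3736 and 6266, and the +2 call of RRD1, a phosphatase activator gene, 3712 and 5701. The SD of these calls differed by less than 2 bp between the strains, from 13.5 to 13.1 bp in SSA3, 14.6 bp in both strains in DEP1 and from 12.9 to 14.8 bp in RRD1.

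The highest ratio was at the +1 call of MTC6, a gene named for telomere capping, whose occupancy went from 589.8 to 1699, a ratio of 3.23. PCA1, a metal pump gene, had a ratio of 3.16 at +3, and PET117, a gene of cytochrome oxidase assembly, 3.11. The lowest ratio was near VOA1, a gene of vacuolar ATPase assembly, where 84.1 in WT became 17.5 in ioc3Δ, a ratio of 0.234. The +1 call of YGL138C had 73.03 and 16.7, a ratio of 0.257, and a call near IFH1, a coactivator gene of ribosomal protein genes, 93.5 and 22.9, a ratio of 0.275. In YGL138C the +1 and the +3 call were both sharp in WT, and their called dyads were 6 and 12 bp upstream in ioc3Δ. The mean dyad of the +3 call changed by 9 bp, and that of the +1 call, with 84 ioc3Δ fragments, by 0 bp. The change at +1 therefore rests on the called peak.

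The DNA within sharp calls had a G+C share of 40.4%, close to the 40.2% of middle calls. Their flanks were poorer in G+C, with 36.0% against 37.7%, and AA, TT and TA steps took 30.6% of flank positions against 29.0%. Both flank windows lay at fixed distances on both sides of the dyad, so they can hold DNA of a neighbouring nucleosome. Within the nucleosome no period near a helical turn could be seen in these steps in any class, as the amplitude was 0.108 percentage points in sharp and 0.134 in middle calls. Rotational preferences were therefore not detectable in this average.

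The flanks of sharp calls held more letters of barrier proteins. The Reb1 letters TTACCCG, sought on both strands, were 74 to 200 bp from the dyad of 239 sharp calls (6.72%), against 0.876% of middle calls and 1.62% of all calls of the same span, mostly 136 to 157.5 bp from the dyad (interquartile range). Within 73 bp of the dyad they were found at 4 sharp calls (0.113%), against 0.306% of all calls. At +1 they flanked 11.9% of sharp, 1.62% of middle and 6.48% of all calls, and outside coding regions 14.4% of sharp and 1.88% of middle calls. The Abf1 letters, TCA and ACG separated by 6 bases of any kind, flanked 14.4% of sharp, 8.15% of middle and 9.29% of all calls. The Rap1 letters ACCCANACA flanked 1.13%, 0.570% and 0.699%, and runs of 6 or more A or T, which may share letters with a match of the other motifs, 48.6%, 38.2% and 40.3%. At +1, however, such runs flanked sharp (60.3%) and middle (58.3%) calls about as often.

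Sharp calls flanked by the Reb1 letters moved and broadened less than the other sharp calls, by a margin that was smaller among +1 calls. None of the 239 moved by 10 bp or more, against 116 of the other 3316 (3.50%), and 142 (59.4%) were still under 15 bp in ioc3Δ, against 35.6% of the others. Their median SD was 13.1 bp in WT and 14.5 bp in ioc3Δ, a median rise of 1.62 bp, against 2.45 bp without the letters, where the WT SD was 13.5 bp. Among sharp +1 calls alone the rise was 1.61 bp with the letters (159 calls) and 1.79 bp without (1180 calls), 0 of 159 and 1.53% moved by 10 bp or more, and 59.8% and 51.1% were still under 15 bp. Beside the other letters the median rise was 1.51 bp for Rap1 (40 calls), 1.86 bp for Abf1 (511 calls) and 2.16 bp for runs of A or T (1728 calls). Without them it was 2.38, 2.48 and 2.61 bp. These rises were not split by place. Of the 511 calls flanked by the Abf1 letters 271 were +1 calls, and all sharp +1 calls had a median rise of 1.76 bp. A match of the letters is a description of the sequence and was not checked against binding.

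A tRNA gene lay within 200 bp of 15 sharp calls (0.422%, against 0.245% of all calls), a replication origin within 200 bp of 40 (1.125%, against 1.135% of all calls) and a centromere within 200 bp of 1. The 63 sharp calls within 20 kb of a chromosome end were 1.77% of sharp calls, against 3.44% of all calls. Beside tRNA genes the median occupancy ratio was 0.694, and beside origins it was 0.823. Sharp calls outside coding regions had similarly low ratios, 0.691 with the Reb1 letters in the flank and 0.719 without. The calls beside these features were not matched for place or G+C, so whether their ratios are particular to them was not tested.

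Few of the +1 to +4 calls of well-studied genes were sharp. Of 47 calls at +1 to +4 of genes whose promoters have long been used to study nucleosomes, 3 were sharp (6.38%), against 14.9% of the 17964 such calls of all genes. Besides GAL7, these were the +1 of POT1, a gene of fatty acid oxidation, whose SD was 13.8 bp in WT and 13.3 bp in ioc3Δ, and the +1 of HSP82, an Hsp90 gene, with 14.2 and 17.1 bp. None of the 12 calls of a-specific genes and none of the 30 calls of genes for barrier factors and the RSC remodeler was sharp. Sharp calls past these positions, such as those farther into GAL10, were not counted in these lists. The lists are small, and whether their shares differ from that of all genes was not tested.

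Of 26 calls at +1 to +4 in genes of ISWI and CHD1 remodelers, 5 were sharp (19.2%), near the 14.9% of such calls of all genes. The IOC2 gene, which encodes a partner of Isw1 in ISW1b, had a sharp +1 that moved 2 bp downstream, with SDs of 12.4 bp (WT) and 11.8 bp (ioc3Δ), and a sharp +2 that moved 9 bp downstream, with 13.6 and 19.2 bp. In DPB4, a gene of a histone-fold subunit, the +2 moved 1 bp and the +4 by 0 bp, with SDs of 12.9 and 17.9 bp at +2 and of 11.7 and 13.9 bp at +4. The fifth was the +1 of IOC3, beside the deleted gene.

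The table labelled ioc3ΔcHLB held the sharp calls as well. Its occupancies at the sharp calls were within 1% of those of ioc3Δ at 98.5% of them, less than the sampling noise, so it was counted as the same sample. It was set beside ioc3Δ here and among the alternatives below, and is no independent check. Its median absolute dyad change from WT was 2 bp and its median occupancy ratio 0.936, but its median SD rise was 5.16 bp against 2.37 bp in ioc3Δ, and the same mutant dyad was called at 29.2% of the calls. The SD of a mutant call therefore depended on which of these 2 tables was read.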

How the data were processed

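MNase-seq was done on 9 samples, 3 per strain. The authors mapped paired reads to sacCer3 with Bowtie 2.0 and made their nucleosome calls after merging the 3 samples of each strain. In the deposited tables, each call has a dyad position in bp, a score (SD, in bp, of its fragments' dyads) and an occupancy, which is a coverage signal that the authors scaled to the genome-wide mean. WT and mutant rows are paired. Of 53840 rows, 1911 repeats and 12 calls of the rRNA locus on chromosome XII (451275 to 469084) were left out, none of the 12 being sharp.

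Positions were counted from the start codon in genes longer than 560 bp, from a first call 60 bp upstream to 120 bp downstream and in steps of 110 to 230 bp. Changes are ioc3Δ minus WT and used the called dyad. The bases around it and the annotation came from RefSeq R64, the build of the tables. The members, lists and comparisons were chosen with earlier results of these data known. Named calls are those with the lowest WT SD (5), highest WT occupancy (3), largest downstream and upstream change (4 each), largest change elsewhere (3), largest SD rise and fall (4 each) and highest and lowest ratio (3 each), besides the sharp calls of the gene lists and those beside the thresholds, of which 1 is not reported here. The Reb1 sites shown and the sorting by gaps, stop codons and G+C were added after the values had been seen. No test was made, since a strain is 1 merged library, and the unequal-variance test of the methods was not rebuilt because its formula is not given in the sources used here. Medians and quartiles were computed in Python 3.11.15 with numpy 2.4.6 and pandas 2.3.3, intervals with scipy 1.17.1 and figures with matplotlib 3.10.9. The code was tested on simulated mutants made from WT. Other SD and occupancy limits, the mean dyad, other scalings and the table labelled ioc3ΔcHLB were tried as alternatives.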

Additional observations from a re-analysis of the deposited data

How the results depend on the processing

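No paired analysis was possible because the tables hold merged calls with no replicates, and for the same reason no replicate could be left out. Of 84 recomputed values, 46 stayed within the 95% interval of the reported one (counts within 1.5 times), 32 moved and 6 changed direction. Intervals take calls as independent and cover no spread between cultures. The interval of the difference in SD change between sharp and middle calls is wider than 95%. With the SD limit at 12 bp, 680 calls were sharp, 0.294% moved by 10 bp or more, the SD change was 1.86 bp, the ratio 0.899 and the Reb1 share 9.41%. At 18 bp these values were 8743 calls, 7.54%, 2.83 bp, 0.939 and 4.53%. The +1 change was 2 bp by mean dyads and 1.54 bp as a mean. The table labelled ioc3ΔcHLB gave 1.83% moved and an SD change of 5.16 bp. Limits of 5 and 20 bp gave 20.0% and 0.169% moved. Calls chosen by ioc3Δ values had an SD change of 0.973 bp and a ratio of 0.997. Occupancies of at least 40 in both strains gave an SD change of 2.19 bp. The ratio was 0.830 without scaling and 0.703 scaled by summed occupancies. Among alternatives added after seeing the data, it was 0.731, 0.913 and 1.18 at low, intermediate and high G+C, the last reversed. The cause of these changes was not tested.

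For sharp minus middle calls, the share moved differed by -26.3 percentage points, and by -24.7 with middle calls of 20 to 30 bp, -28.4, -18.8 and -10.5 at WT occupancies of 20 to 50, 200 to 1000 and 1000 or more, and -28.2 and -33.4 at +1 and +4. The SD change differed by -0.873 bp, and by -0.293, -0.408, -0.057, 0.774 and -0.251 bp in rising classes of occupancy. Its sign was reversed at each position, at 0.040, 0.154, 0.619 and 0.656 bp from +1 to +4. The interval of this difference came from subtracting the end points of the 95% intervals of the sharp and the middle median. It is therefore wider than a 95% interval. It included 0 at each of these positions, from -0.350 to 0.354 bp at +1 and from -0.205 to 1.376 bp at +4, but only just at +3, from -0.016 to 1.159 bp. The smaller SD rise of sharp calls thus did not hold there. Whether the rises differed at these positions cannot be decided from such wide intervals. The differences by position are among the 6 counted as changed in direction. Depth limited the calls of lowest occupancy, where 34 fragments were the fewest in ioc3Δ.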
